A study of Homo sapiens with 8 samples.

Results

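ABC1 and HCC4006 are established human lung adenocarcinoma lines in which neither *KEAP1* nor *NRF2* is mutated. The comparison asks where their transcriptional responses to diethyl maleate (DEM) differ. For each gene, the effect of DEM (mean with DEM minus mean with vehicle, on the scale log2(FPKM + 1)) was taken in each line, and the effect in ABC1 was subtracted from that in HCC4006. A positive line difference therefore means a higher DEM effect in HCC4006, and a negative one a lower DEM effect in HCC4006. FPKM is the number of sequenced fragments divided by the length of the transcript and by the size of the library. The genes studied are those with a vehicle mean of at least 5 FPKM in both lines, which were 8232 of the 57815 gene identifiers. The minimum was met in ABC1 only by 993 genes and in HCC4006 only by 1504 genes, and these were not used. Just inside it lay *PPAT*, with 5.004 FPKM in ABC1, and *E2F8*, with 5.004 FPKM in HCC4006, whereas *KMT2C* (4.999 FPKM) and *PHC1* (4.997 FPKM) lay just outside it in HCC4006. The 4 groups were ABC1 with vehicle, ABC1 with DEM, HCC4006 with vehicle and HCC4006 with DEM, each of 2 libraries, and all were grown in low-glucose medium with serum. DEM was given at 100 μM for 16 h, and the vehicle was dimethyl sulfoxide. Each line is a single tumour line, so a trait of the line and anything else that differed between its cultures cannot be told apart.

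DEM is an electrophile that reacts with thiols, forms conjugates with glutathione and modifies cysteines of KEAP1, the adaptor that marks NRF2 for degradation. NRF2 then accumulates, pairs with small MAF proteins and binds antioxidant response elements (AREs) of genes for glutathione synthesis, quinone reduction, thioredoxin recycling and NADPH supply. Electrophiles also act outside this system: they disturb protein folding, amino acid sensing and DNA integrity, which engage heat shock factors, ATF4 and p53. In lung adenocarcinoma, the KEAP1-NRF2 system is often altered by mutation, and lines without such mutations are used to follow its transient activation.

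The sums of FPKM differed between libraries by at most 1.18 times. Pearson's r across the genes studied was 0.981 to 0.99 between the libraries of a group, and the median absolute log2 difference between them was larger in ABC1 (0.161 with vehicle and 0.187 with DEM) than in HCC4006 (0.096 and 0.114). Transcripts of the mitochondrial genome held 20.24% of the FPKM sum in ABC1 DEM replicate 1, against 13.64% to 16.45% in the other 7 libraries. The epithelial marker *EPCAM* was at 234 to 401 FPKM in every library, and *KRT8*, *KRT18* and *CDH1* were at 92.4 FPKM or more. The keratin *KRT7* was at 1460 to 2110 FPKM in HCC4006 and at 10.4 to 25.9 FPKM in ABC1. Of the mesenchymal markers, *VIM* (227 to 283 FPKM) and *CDH2* (6.23 to 8.49 FPKM) were expressed in HCC4006. Neither exceeded 0.909 FPKM in ABC1. *FN1* had the reverse contrast, with 165 to 242 FPKM in ABC1 and 7.82 to 13.2 FPKM in HCC4006. The lung lineage factor *NKX2-1* was at 42.4 to 47.1 FPKM in HCC4006 and at 0.502 to 0.763 FPKM in ABC1, so this defining marker was nearly absent from ABC1. Of the other lung markers, *NAPSA* had the same contrast, with 12.9 to 16.0 FPKM in HCC4006 and 0.234 to 0.646 FPKM in ABC1. The surfactant gene *SFTPB* was nearly absent from both lines, with 0.0386 to 0.277 FPKM in HCC4006 and 0 FPKM in ABC1. Of the leukocyte markers, *PTPRC* and *CD3E* did not exceed 0.192 FPKM, whereas *CD68*, a lysosomal protein used as a macrophage marker, was at 89.3 to 102 FPKM in HCC4006 and at 1.55 to 2.54 FPKM in ABC1. Its part in the line differences was not tested.

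Both lines responded to DEM with many genes, and the responses had much in common. In a limma model of all 8 libraries with Benjamini-Hochberg adjustment over the 8232 genes, the threshold for a call was an adjusted p of 0.05. In ABC1, 617 genes were called upregulated (7.50% of those tested) and 575 downregulated (6.98%). In HCC4006, 488 were upregulated (5.93%) and 552 downregulated (6.71%). Upregulation in both lines was called for 250 genes, which is 40.5% of the upregulated genes of ABC1 and 51.2% of those of HCC4006. Downregulation in both was called for 208 genes, 36.2% of the downregulated genes of ABC1 and 37.7% of those of HCC4006. Across the genes, the correlation of the effects in both lines was 0.621 (Pearson's r) and 0.598 (Spearman's rho), a description over genes that share their libraries within a line. Although 1292 genes were called in 1 line only, the line difference itself was called for 17 of them. All these counts come from a fit that took the same variance for both lines. With library weights per line, 283 genes were called higher and 228 lower in ABC1, against 1024 and 1252 in HCC4006. Which line had more calls therefore depended on the weighting.

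The line difference was called for 26 genes in all, of which 15 had a higher DEM effect in HCC4006 (0.182% of those tested) and 11 a lower one (0.134%). At an unadjusted p under 0.05 by limma, the line difference was higher in HCC4006 for 482 genes (5.86%) and lower for 553 (6.72%), and these shares are the background for every list below. The median line difference over all 8232 genes was -0.03. The 26 calls rested on all HCC4006 libraries: with vehicle replicate 0, vehicle replicate 1, DEM replicate 0 or DEM replicate 1 of HCC4006 left out, limma called 0 genes, while 684, 681, 758 and 788 genes in this order had an unadjusted p under 0.05. Without limma's mean-variance trend, *AURKB*, *CNN3*, *MIR22HG*, *MALL*, *GAB2* and *CHCHD10* were not called (adjusted p = 0.0513 each). All 26 genes kept the sign of their line difference whichever library was left out. Of the ABC1 libraries, leaving out vehicle replicate 0 gave 4 genes higher and 3 lower in HCC4006, vehicle replicate 1 gave 7 and 11, DEM replicate 0 gave 50 and 59, and DEM replicate 1 gave 35 and 21.

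**Figure D1:**
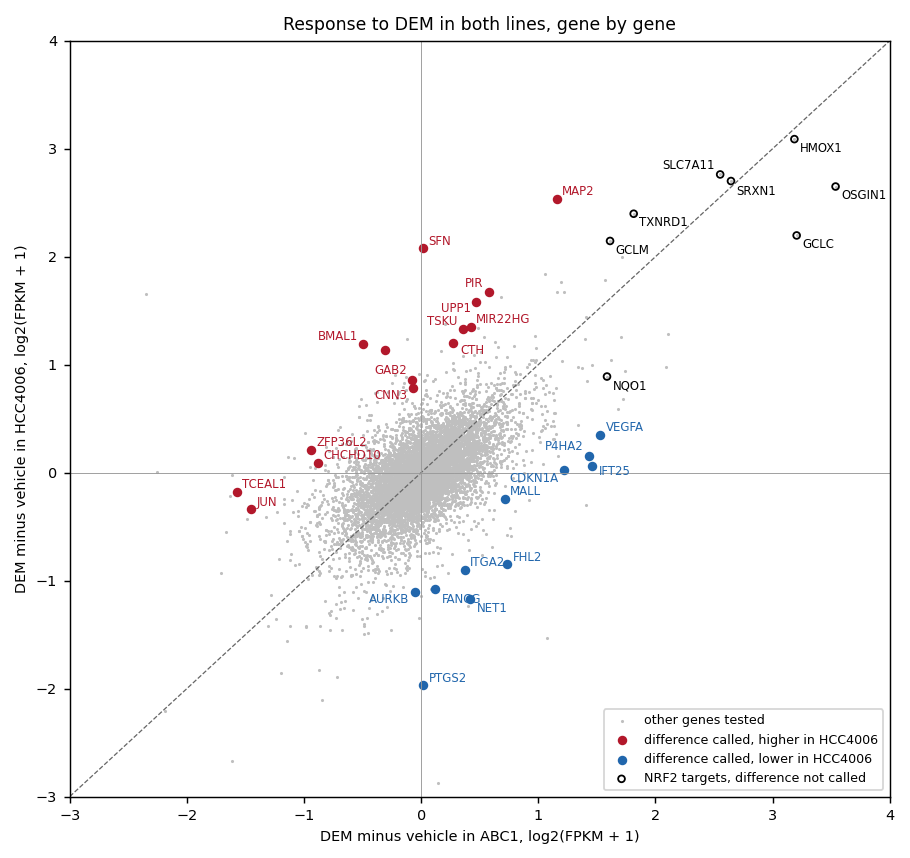
DEM effect in ABC1 (x axis) against that in HCC4006 (y axis), both as log2(FPKM + 1) with DEM minus vehicle, for the 8232 genes (grey), with the 15 genes called higher in HCC4006 in red and the 11 called lower in blue (names given for most), and 8 NRF2 targets as open circles. The dashed line marks equal effects. *HMOX1*, *SLC7A11* and *SRXN1* lie near it, whereas *SFN* and *PTGS2* lie far from it with almost no effect in ABC1.

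Among the called genes, the most positive line difference was that of *SFN* (GRCh37 chromosome 1, 27189640 to 27190947), which encodes the epithelial 14-3-3 sigma protein that restrains cell cycle progression. *SFN* had 52.7 and 70.5 FPKM with vehicle and 55.5 and 68.6 FPKM with DEM in ABC1. It had 292 and 273 FPKM with vehicle and 1271 and 1123 FPKM with DEM in HCC4006. DEM thus raised *SFN* 4.24-fold in HCC4006, while the groups overlapped in ABC1, and the line difference was 2.06 (standard error 0.23, adjusted p = 0.0134 by limma). *MAP2* (GRCh37 chromosome 2, 210288771 to 210598871), a microtubule-binding protein best known from neurons, started at nearly the same level in both lines. Its values were 14.3 and 16.5 FPKM with vehicle and 32.9 and 38.3 FPKM with DEM in ABC1. They were 14.8 and 14.8 FPKM with vehicle and 90.00 and 91.3 FPKM with DEM in HCC4006. *MAP2* rose in both lines, 2.31-fold in ABC1 and 6.12-fold in HCC4006, without overlap of the groups (line difference 1.38, adjusted p = 0.0178 by limma).

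Further genes were called upregulated in HCC4006 and not in ABC1. *CNN3*, encoding an actin-binding calponin, had 152 and 154 FPKM with vehicle and 143 and 149 FPKM with DEM in ABC1. Its values were 97.02 and 92.9 FPKM with vehicle and 166 and 163 FPKM with DEM in HCC4006. *CNN3* was called upregulated in HCC4006 and not in ABC1, and its line difference was 0.85 (adjusted p = 0.0417 by limma). *GAB2*, an adaptor of receptor tyrosine kinases, had 33.6 and 37.1 FPKM with vehicle and 32.1 and 34.8 FPKM with DEM in ABC1. Its values were 17.1 and 16.5 FPKM with vehicle and 31.96 and 30.5 FPKM with DEM in HCC4006, a 1.86-fold rise without a counterpart in ABC1, where the groups overlapped (line difference 0.94).

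Several genes rose in both lines but more so in HCC4006. *UPP1*, encoding uridine phosphorylase, had 24.4 and 27.00 FPKM with vehicle and 36.2 and 35.6 FPKM with DEM in ABC1. Its values were 74.9 and 70.2 FPKM with vehicle and 209 and 230.3 FPKM with DEM in HCC4006, so the increase was 1.40-fold in ABC1 and 3.03-fold in HCC4006 (line difference 1.12, adjusted p = 0.0262 by limma). *PIR*, encoding the iron-binding protein pirin and a known NRF2 target, had 25.1 and 26.1 FPKM with vehicle and 41.9 and 35.7 FPKM with DEM in ABC1. Its values were 10.03 and 9.68 FPKM with vehicle and 31.7 and 35.6 FPKM with DEM in HCC4006. The vehicle level of *PIR* was lower in HCC4006, the DEM levels were closer together, with both ABC1 libraries above both HCC4006 libraries, and the increase was 1.52-fold against 3.41-fold (line difference 1.09, adjusted p = 0.0417 by limma). *TSKU*, a secreted leucine-rich protein, and the long non-coding RNA *MIR22HG*, host of a microRNA, were also upregulated in both lines, with line differences of 0.98 and 0.93. After rescaling without genes of the mitochondrial genome, *PIR* (adjusted p = 0.0549 by limma) and *MIR22HG* (0.0736) were not called. *CTH*, encoding the cystathionine gamma-lyase that makes cysteine from cystathionine, had 40.5 and 42.7 FPKM with vehicle and 51.2 and 49.95 FPKM with DEM in ABC1. It had 9.50 and 9.23 FPKM with vehicle and 22.00 and 23.5 FPKM with DEM in HCC4006. Both DEM libraries were above both vehicle libraries in each line, but the ratio of DEM to vehicle was 1.22 in ABC1, where it was not called, and 2.43 in HCC4006 (line difference 0.92, adjusted p = 0.0417 by limma).

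A positive line difference could also stem from a fall in ABC1. *JUN* (GRCh37 chromosome 1, 59242517 to 59249720), an AP-1 subunit, had 19.7 and 17.8 FPKM with vehicle and 5.83 and 6.61 FPKM with DEM in ABC1. It had 31.4 and 29.1 FPKM with vehicle and 24.9 and 22.5 FPKM with DEM in HCC4006. The fall to 0.332 of the vehicle mean was called in ABC1, and the ratio of 0.784 in HCC4006 was not (line difference 1.11, adjusted p = 0.0417 by limma). *ZFP36L2*, encoding an RNA-binding protein that promotes decay of mRNAs with AU-rich elements, had 54.97 and 49.2 FPKM with vehicle and 25.97 and 27.2 FPKM with DEM in ABC1. Its values were 14.7 and 14.4 FPKM with vehicle and 17.1 and 16.96 FPKM with DEM in HCC4006, and it was called downregulated in ABC1 and not in HCC4006 (line difference 1.15). *TCEAL1*, a transcription elongation factor-like gene, had 8.70 and 7.19 FPKM with vehicle and 1.97 and 2.02 FPKM with DEM in ABC1. It had 35.2 and 34.5 FPKM with vehicle and 32.1 and 29.4 FPKM with DEM in HCC4006. *TCEAL1* fell in ABC1 to the lowest level of the called genes, where the added 1 FPKM makes the log2 effect smaller than the ratio (0.251 of the vehicle mean, line difference 1.40). *CHCHD10*, encoding a protein of mitochondrial cristae, was likewise downregulated in ABC1 (58.3 and 62.5 against 30.5 and 34.3 FPKM) and not in HCC4006 (line difference 0.97).

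Opposite directions were called in the lines for 4 genes with a called line difference. *BMAL1* (GRCh37 chromosome 11, 13298199 to 13408813), encoding a core activator of the circadian clock, had 6.08 and 6.45 FPKM with vehicle and 4.12 and 4.19 FPKM with DEM in ABC1. It had 24.9 and 25.6 FPKM with vehicle and 57.4 and 60.6 FPKM with DEM in HCC4006. *BMAL1* fell to 0.663 of the vehicle mean in ABC1 and rose 2.34-fold in HCC4006, with no overlap in either line (line difference 1.69, standard error 0.14, adjusted p = 0.00795 by limma). *NET1*, a guanine exchange factor for RhoA, had 25.9 and 28.6 FPKM with vehicle and 36.7 and 36.6 FPKM with DEM in ABC1. It had 89.5 and 82.4 FPKM with vehicle and 34.9 and 40.4 FPKM with DEM in HCC4006. *FHL2*, a LIM-domain cofactor, had 15.6 and 13.8 FPKM with vehicle and 24.4 and 25.9 FPKM with DEM in ABC1. Its values were 204 and 206 FPKM with vehicle and 111 and 116 FPKM with DEM in HCC4006. *ITGA2*, the alpha subunit of a collagen-binding integrin, had 5.36 and 4.98 FPKM with vehicle and 7.09 and 6.88 FPKM with DEM in ABC1. Its values were 56.98 and 61.6 FPKM with vehicle and 31.3 and 31.2 FPKM with DEM in HCC4006. These 3 genes were upregulated in ABC1 and downregulated in HCC4006, where their vehicle levels were higher, and their line differences were -1.59, -1.59 and -1.27 in this order. The vehicle mean of *ITGA2* in ABC1 was close to the minimum of 5 FPKM. Opposite calls without a called line difference were found for 8 more genes, among them *CPOX*, *SSH1* and *EMP1*.

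*PTGS2* (GRCh37 chromosome 1, 186640923 to 186650054), encoding the inducible cyclooxygenase, had the most negative line difference of the called genes, -1.99 (standard error 0.28, adjusted p = 0.0403 by limma). It had 11.6 and 17.6 FPKM with vehicle and 12.5 and 16.9 FPKM with DEM in ABC1. Its values were 24.8 and 27.99 FPKM with vehicle and 6.03 and 5.91 FPKM with DEM in HCC4006. The groups overlapped in ABC1, while in HCC4006 *PTGS2* fell to 0.226 of the vehicle mean. *IFT25*, encoding a subunit of the ciliary transport complex, had 17.00 and 18.7 FPKM with vehicle and 52.4 and 49.1 FPKM with DEM in ABC1. It had 26.4 and 20.4 FPKM with vehicle and 23.2 and 25.4 FPKM with DEM in HCC4006. *IFT25* rose 2.84-fold in ABC1 and its groups overlapped in HCC4006 (line difference -1.40). *MALL*, encoding a protein of membrane rafts and, like *GAB2* and *CHCHD10*, named here as one of the remaining called genes, was upregulated in ABC1 (70.9 and 66.5 against 116 and 110.0 FPKM) and not in HCC4006 (line difference -0.96). Without the minimum on FPKM, *PTGS2* (adjusted p = 0.0953 by limma) and *IFT25* (0.057) were not called.

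**Figure D2:**
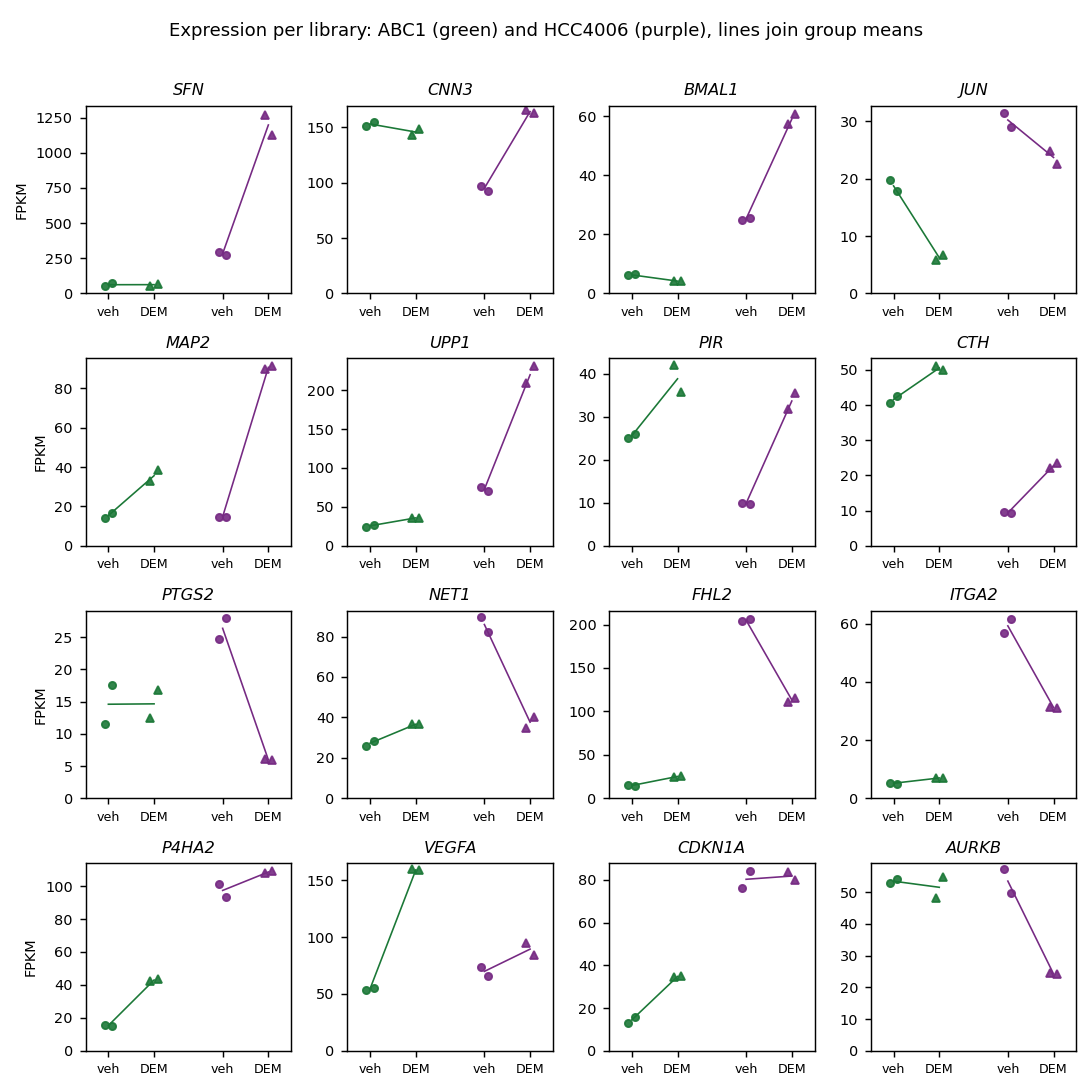
FPKM of each library (y axis, linear and from 0) with vehicle (circles) and DEM (triangles) in ABC1 (green) and HCC4006 (purple) for 16 of the called genes, with lines joining the group means. *SFN*, *CNN3* and *BMAL1* were upregulated in HCC4006 and not in ABC1, *P4HA2*, *VEGFA* and *CDKN1A* were upregulated in ABC1 and were not called in HCC4006, and *NET1*, *FHL2* and *ITGA2* moved in opposite directions.

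Across pathways, the genes were described by 59 lists, in which 1295 of the 1629 listed symbols met the expression minimum. In 48 of the 59 lists, 0 genes were called by limma for the line difference, so the lists are described by their medians and by counts at an unadjusted p under 0.05, beside the 5.86% (higher) and 6.72% (lower) of all genes. Calls here and below refer to the fit without a term for replicate number. With such a term (a replicate block), 120 line differences were called higher and 161 lower in HCC4006, as described at the end. The median effect of all genes was -0.01 in ABC1 and -0.03 in HCC4006. Calls within a line stand beside the shares of all genes called up and down, 7.50% and 6.98% in ABC1 and 5.93% and 6.71% in HCC4006. The most negative medians belonged to the lists of DNA repair, mitosis, DNA replication and the G1 phase, and the most positive ones to lipid synthesis. The former are called proliferation lists here, although the G1 list also holds inhibitors of the cell cycle, such as *CDKN1A*, which rose in ABC1.

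**Figure D3:**
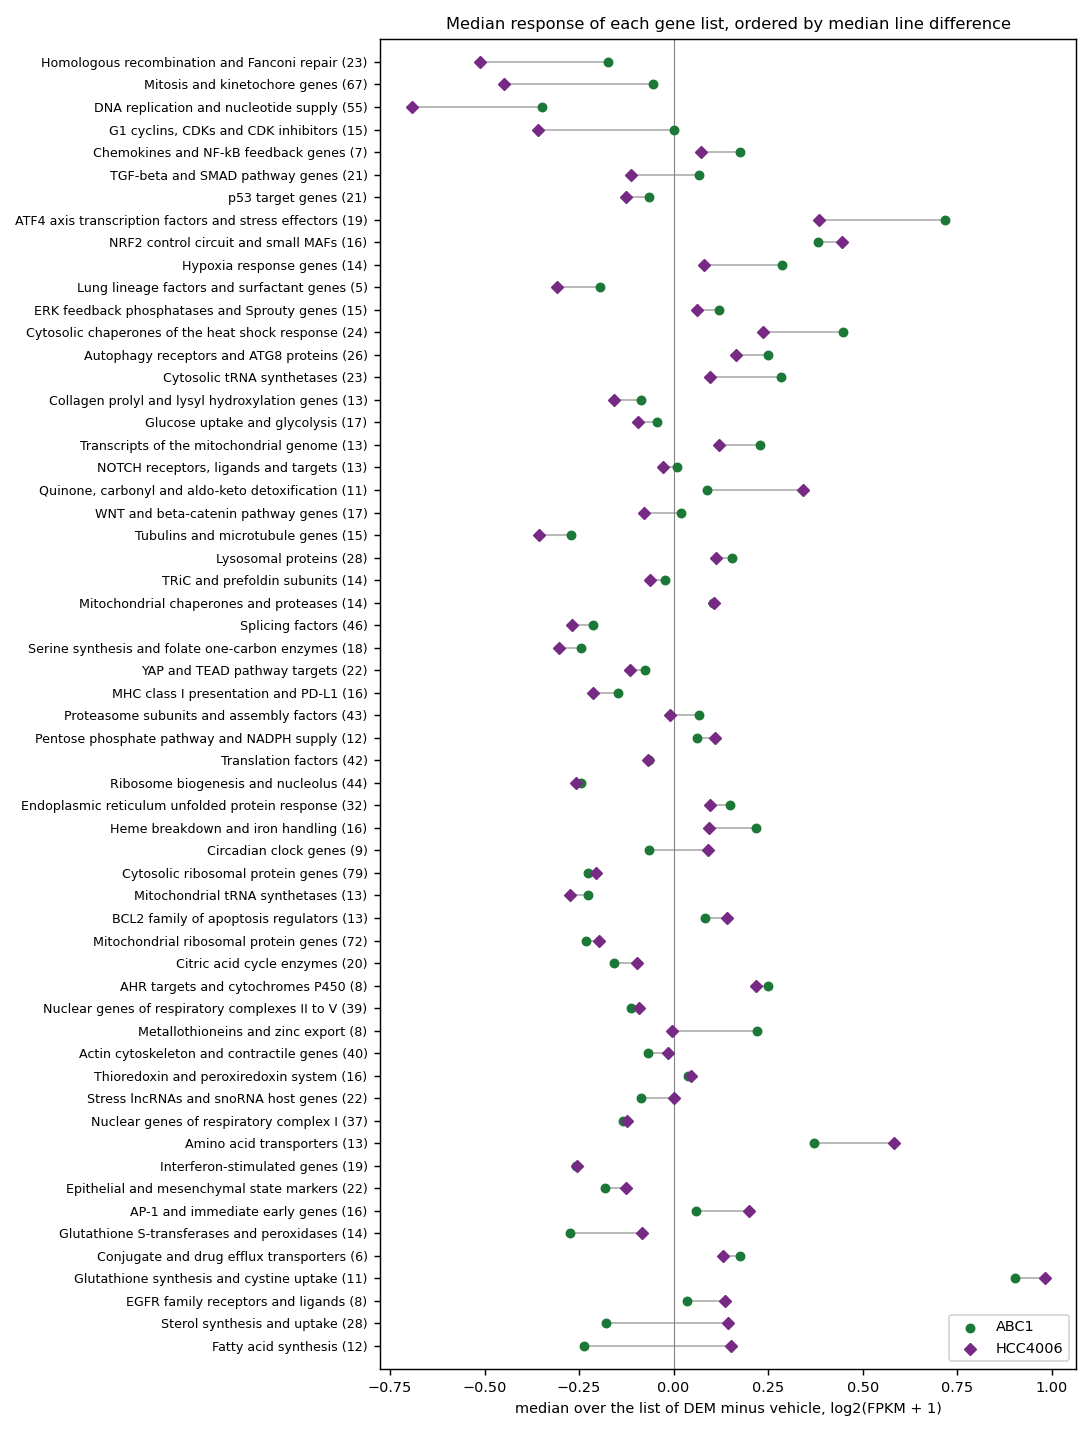
Median DEM effect (x axis, log2(FPKM + 1)) of the 58 gene lists with at least 5 genes in ABC1 (green circles) and HCC4006 (purple diamonds), ordered from the lowest to the highest median line difference, with the number of genes in parentheses. The proliferation lists at the top were lower in HCC4006, sterol and fatty acid synthesis at the bottom had medians below 0 in ABC1 and above 0 in HCC4006, and the ribosomal protein lists nearly coincided.

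More proliferation genes were called downregulated with DEM in HCC4006 than in ABC1. Of the 67 genes of mitosis and the kinetochore, 28 were called downregulated in HCC4006 and 3 in ABC1, and 4 were called upregulated in ABC1. Their median effect was -0.05 in ABC1 and -0.45 in HCC4006, with a median line difference of -0.38 that lay at -0.51 to -0.30 when each library was left out in turn. The line difference was negative for 63 of the 67 genes, and 27 had an unadjusted p under 0.05 by limma, all of them lower in HCC4006. The FPKM of the list summed to 3475 and 4183 with vehicle and 3314 and 3999 with DEM in ABC1, so the groups overlapped. In HCC4006 the sums were 3006 and 3007 with vehicle and 2454 and 2390.0 with DEM, without overlap. In these bulk libraries, fewer cycling cells and less RNA of these genes per cell cannot be told apart. *AURKB* (GRCh37 chromosome 17, 8108051 to 8113918), the kinase of the chromosomal passenger complex, was the one gene called, with 52.8 and 54.1 FPKM with vehicle and 48.1 and 54.8 FPKM with DEM in ABC1. It had 57.4 and 49.5 FPKM with vehicle and 24.4 and 24.04 FPKM with DEM in HCC4006, a fall to 0.453 of the vehicle mean (line difference -1.05, adjusted p = 0.0417 by limma). Its partner *INCENP* and the ubiquitin-conjugating enzyme *UBE2C* were both called downregulated in HCC4006 and not in ABC1, with line differences of -0.83 (95% interval -1.25 to -0.42) and -1.16 (-1.64 to -0.68).

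Because the mitosis genes moved together, their promoters were read from RefSeq (GRCh38.p14), from 250 bases before to 50 bases after the start, which matched 59 of the 67 genes. The cell cycle homology region (CHR, letters TTTGAA on either strand) was present in 40 of 59 promoters (67.8%), against 9.06% of the 6653 matched promoters of all genes studied and 15.4% of all 27305 promoters. The letters CCAAT, the core of an NF-Y site, were present in 45 of 59 (76.3%) against 38.1% of the genes studied. The DNA replication list held the CHR letters in 1 of 49 promoters (2.04%). Within the mitosis list, the median line difference was -0.43 for the 40 genes with these letters and -0.33 for the 19 without, a description of these genes with no test. The one called gene of the list, *AURKB*, held no CHR letters in this window, and neither did any of the 10 matched promoters of genes called lower in HCC4006. The 250 bases upstream of the start are shown for 3 genes of the list that hold the letters and were downregulated in HCC4006, whose line differences were not called, with CHR and CCAAT letters in capitals (TTCAAA and ATTGG where they lie on the opposite strand).
TOP2A (chr17:40417897-40418146, minus strand): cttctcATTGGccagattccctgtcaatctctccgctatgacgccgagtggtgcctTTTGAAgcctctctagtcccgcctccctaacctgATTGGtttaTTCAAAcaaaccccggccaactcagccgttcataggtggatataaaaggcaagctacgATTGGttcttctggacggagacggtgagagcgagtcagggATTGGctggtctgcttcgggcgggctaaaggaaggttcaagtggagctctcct
INCENP (chr11:62123761-62124010, plus strand): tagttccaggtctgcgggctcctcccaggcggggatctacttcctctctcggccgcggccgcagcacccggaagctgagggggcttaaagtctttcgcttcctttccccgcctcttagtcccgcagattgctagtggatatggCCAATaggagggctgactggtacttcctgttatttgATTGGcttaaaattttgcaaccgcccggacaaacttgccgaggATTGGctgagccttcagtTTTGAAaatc
CDK1 (chr10:60778081-60778330, plus strand): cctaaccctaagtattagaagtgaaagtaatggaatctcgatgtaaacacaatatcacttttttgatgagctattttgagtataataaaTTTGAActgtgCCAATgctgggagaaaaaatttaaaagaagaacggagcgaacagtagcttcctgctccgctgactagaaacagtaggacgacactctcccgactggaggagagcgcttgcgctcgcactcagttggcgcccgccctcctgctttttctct

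These promoters belong to genes with similar contrasts between the lines. *TOP2A*, the topoisomerase of mitotic chromosomes, had 86.9 and 96.3 FPKM with vehicle and 59.7 and 88.6 FPKM with DEM in ABC1. It had 56.7 and 53.7 FPKM with vehicle and 22.7 and 25.5 FPKM with DEM in HCC4006. *CDK1*, the mitotic cyclin-dependent kinase, had 44.7 and 49.1 FPKM with vehicle and 35.96 and 40.6 FPKM with DEM in ABC1. It had 31.4 and 37.01 FPKM with vehicle and 16.9 and 17.6 FPKM with DEM in HCC4006. Both were called downregulated in HCC4006 and not in ABC1, but their line differences of -0.84 (adjusted p = 0.201 by limma) and -0.65 (adjusted p = 0.163) did not pass the threshold.

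DNA replication genes had negative medians in both lines. Of 55 genes, 35 were called downregulated in HCC4006 and 13 in ABC1. The median effect was -0.35 in ABC1 and -0.69 in HCC4006. The median line difference was -0.36 (-0.51 to -0.17 when each library was left out), and 13 genes had an unadjusted p under 0.05 by limma, all lower in HCC4006, while 0 were called. The summed FPKM was 2811 and 3433 with vehicle and 2017 and 2737 with DEM in ABC1, and 2498 and 2456 with vehicle and 1463 and 1475 with DEM in HCC4006. The groups did not overlap in either line. *RRM2*, the small subunit of ribonucleotide reductase, had 110.5 and 168 FPKM with vehicle and 84.4 and 111 FPKM with DEM in ABC1. It had 106 and 97.3 FPKM with vehicle and 37.7 and 37.9 FPKM with DEM in HCC4006, and the line difference was -0.91 (95% interval -1.54 to -0.28). For *CDC45*, a component of the replicative helicase, it was -0.90 (-1.66 to -0.14). *PCNA*, the sliding clamp, was downregulated in both lines, with effects of -0.58 and -1.27.

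Homologous recombination and Fanconi anaemia repair genes, which handle DNA crosslinks and stalled forks, had the most negative median of the lists with at least 5 genes (-0.47, -0.60 to -0.33 when each library was left out). Their median effect was -0.17 in ABC1 and -0.51 in HCC4006, and 10 of 23 genes were called downregulated in HCC4006 against 2 in ABC1. *FANCG* (GRCh37 chromosome 9, 35073832 to 35080001), a subunit of the Fanconi core complex, was called. Its values were 20.03 and 19.9 FPKM with vehicle and 19.5 and 24.2 FPKM with DEM in ABC1. It had 14.9 and 14.6 FPKM with vehicle and 6.43 and 6.52 FPKM with DEM in HCC4006. The groups overlapped in ABC1, and in HCC4006 *FANCG* fell to 0.439 of the vehicle mean (line difference -1.19, standard error 0.17, adjusted p = 0.0417 by limma). *BRCA1* had effects of 0.03 in ABC1 and -0.92 in HCC4006, a line difference of -0.95 that was not called (95% interval -1.56 to -0.35).

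Among 15 cyclins, cyclin-dependent kinases and their inhibitors of the G1 phase, 6 had an unadjusted p under 0.05 by limma, all lower in HCC4006. *CDKN1A* (GRCh37 chromosome 6, 36644237 to 36655114), encoding the inhibitor p21, had 13.1 and 15.8 FPKM with vehicle and 34.8 and 34.8 FPKM with DEM in ABC1. It had 76.4 and 84.2 FPKM with vehicle and 83.7 and 79.95 FPKM with DEM in HCC4006. DEM thus raised *CDKN1A* 2.40-fold in ABC1, from a level far below that of HCC4006, where the groups overlapped (line difference -1.19, adjusted p = 0.0326 by limma). *CCND3*, encoding cyclin D3, was upregulated in ABC1 (effect 1.40) and had an effect of -0.30 in HCC4006. Its line difference of -1.70 had a standard error of 0.29 and was not called (adjusted p = 0.0595 by limma).

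The p53 target list used here contained 8 of 21 genes with an unadjusted p under 0.05 by limma, all lower in HCC4006. *SFN*, with a line difference of 2.06, was in none of the lists and is therefore not counted here. In ABC1, 5 of the 21 were called upregulated (7.50% of all genes), and in HCC4006 2 were called downregulated (6.71% of all genes). Apart from *CDKN1A*, the stress cytokine *GDF15*, the polyamine enzyme *SAT1* and the death receptor *TNFRSF10B* were upregulated in ABC1 and not called in HCC4006. *SAT1* had 26.02 and 24.1 FPKM with vehicle and 64.4 and 51.5 FPKM with DEM in ABC1. It had 49.9 and 52.00 FPKM with vehicle and 51.2 and 63.3 FPKM with DEM in HCC4006 (line difference -1.01, adjusted p = 0.0818 by limma). *GDF15* had effects of 1.68 and 0.59, and its line difference of -1.09 changed from -1.50 to -0.69 depending on the library left out. *MDM2* and *BTG2* were instead called downregulated in HCC4006, with line differences of -0.76 and -1.25. The list as a whole was mixed: its median effect was -0.07 in ABC1 and -0.13 in HCC4006. The median line difference was -0.27 and ranged from -0.27 to -0.05 when each library was left out.

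Hypoxia response genes held 2 of the 26 called genes, both upregulated in ABC1. *P4HA2* (GRCh37 chromosome 5, 131525840 to 131631008), a collagen prolyl hydroxylase, had 15.4 and 15.2 FPKM with vehicle and 42.2 and 43.7 FPKM with DEM in ABC1. It had 101 and 93.3 FPKM with vehicle and 108 and 109 FPKM with DEM in HCC4006. *P4HA2* rose 2.81-fold in ABC1, while the ratio of DEM to vehicle was 1.11 in HCC4006 and was not called (line difference -1.27, standard error 0.13, adjusted p = 0.0111 by limma). *VEGFA* (GRCh37 chromosome 6, 43737921 to 43754224), the angiogenic growth factor, started at similar levels in both lines, 53.8 and 55.5 FPKM in ABC1 and 73.6 and 66.2 FPKM in HCC4006. With DEM it reached 159.7 and 159 FPKM in ABC1 and 94.95 and 84.02 FPKM in HCC4006 (line difference -1.18, adjusted p = 0.0214 by limma). Over the 14 genes, the median effect was 0.29 in ABC1 and 0.08 in HCC4006, with 5 and 1 called upregulated. Their median line difference was -0.21 (-0.35 to -0.13 when each library was left out). At an unadjusted p under 0.05 by limma, 5 were lower and 0 higher in HCC4006. The glycolysis list, whose genes HIF also induces, had a median line difference of -0.11 (-0.21 to 0.02 when each library was left out).

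Many ATF4 axis genes were upregulated in each line. Of 19 genes, 11 were called upregulated in ABC1 and 8 in HCC4006, with median effects of 0.72 and 0.38. The median line difference was -0.25 (-0.38 to -0.13 when each library was left out), and 0 genes were called, with 5 lower and 1 higher at an unadjusted p under 0.05 by limma. *CHAC1*, which degrades glutathione, had effects of 1.41 and 0.85, and *CEBPG*, a partner of ATF4, of 0.94 and 0.58. For *DDIT3* the effects of 1.40 and 1.24 left a line difference of -0.16 with a 95% interval of -0.59 to 0.28. *TRIB3* had 0.07 (-0.27 to 0.41), and *ATF4* itself had 0.20 (-0.19 to 0.60). Amino acid transporters, many of them ATF4 targets, had a median line difference of 0.08: 9 of 13 were upregulated in HCC4006 and 6 in ABC1, and the 4 with an unadjusted p under 0.05 by limma were all higher in HCC4006, led by *SLC6A9* (0.58) and *SLC36A1* (0.50). Cytosolic chaperones of the heat shock response had median effects of 0.45 and 0.24, with 12 and 7 of 24 upregulated. *HSPA1A*, with 0.88 and 0.69, is a near copy of *HSPA1B*, so its reads may be split between them.

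Lipid synthesis genes had positive median line differences. Of the 28 genes of sterol synthesis and uptake, 25 had a positive line difference, and the 9 with an unadjusted p under 0.05 by limma were all higher in HCC4006, while 0 were called. The median effect was -0.18 in ABC1, where 6 genes were called downregulated, and 0.14 in HCC4006, where 4 were upregulated and 2 downregulated. The median line difference of 0.28 stayed at 0.15 to 0.35 when each library was left out. The summed FPKM was 1874 and 1884 with vehicle and 1751 and 1628 with DEM in ABC1, and 1940.0 and 1941 with vehicle and 2039 and 2098 with DEM in HCC4006. With DEM, both sums were thus lower than either vehicle sum in ABC1 and higher than either in HCC4006. *MVK*, encoding mevalonate kinase, had 39.6 and 35.2 FPKM with vehicle and 24.9 and 19.1 FPKM with DEM in ABC1. It had 14.3 and 14.6 FPKM with vehicle and 15.7 and 16.6 FPKM with DEM in HCC4006, and was called downregulated in ABC1 and not in HCC4006 (line difference 0.90, 95% interval 0.46 to 1.33, adjusted p = 0.104 by limma). *LSS*, encoding lanosterol synthase, was also called downregulated in ABC1 and not in HCC4006, with a line difference of 0.89 (0.29 to 1.50). *MVD*, a later enzyme of the pathway, was upregulated in HCC4006 and not in ABC1, with an effect of 0.50 there against -0.19.

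CCAAT letters, the core of the NF-Y sites with which the sterol regulator SREBP often cooperates, were present in 16 of 21 matched promoters of the sterol list (76.2%) against 38.1% of the genes studied. They were not particular to this list. The mitosis list held them in 76.3% of promoters. The endoplasmic reticulum stress list, with a median line difference of -0.02, held them in 24 of 30 (80%). The letters TCACNCCAC of a sterol regulatory element were present in 1 of 21 against 1.04%. The 250 bases upstream of *MVK*, the gene of the list with the highest line difference, are shown with CCAAT letters, or ATTGG for the opposite strand, in capitals (RefSeq, GRCh38.p14).
MVK (chr12:109573544-109573793, plus strand): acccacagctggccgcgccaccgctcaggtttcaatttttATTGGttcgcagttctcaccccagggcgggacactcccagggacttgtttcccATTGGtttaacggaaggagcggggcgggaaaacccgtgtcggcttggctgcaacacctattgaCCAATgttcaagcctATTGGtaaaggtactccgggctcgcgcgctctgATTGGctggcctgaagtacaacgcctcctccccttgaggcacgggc

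Fatty acid synthesis genes had the highest median line difference of these lists, 0.35 (0.29 to 0.35 when each library was left out). Over 12 genes, the median effect was -0.24 in ABC1 and 0.15 in HCC4006, and 4 were higher and 0 lower in HCC4006 at an unadjusted p under 0.05 by limma, with 0 called. *ELOVL6*, an elongase, had 34.6 and 39.5 FPKM with vehicle and 25.6 and 20.6 FPKM with DEM in ABC1. It had 19.4 and 19.2 FPKM with vehicle and 18.6 and 24.6 FPKM with DEM in HCC4006 (line difference 0.81, 95% interval 0.31 to 1.31). *FASN*, the fatty acid synthase, had a line difference of 0.53 (0.21 to 0.85). *SREBF1*, encoding the regulator SREBP1, was downregulated in both lines, with effects of -0.86 and -0.78 and a line difference of 0.08 (-0.34 to 0.50).

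**Figure D4:**
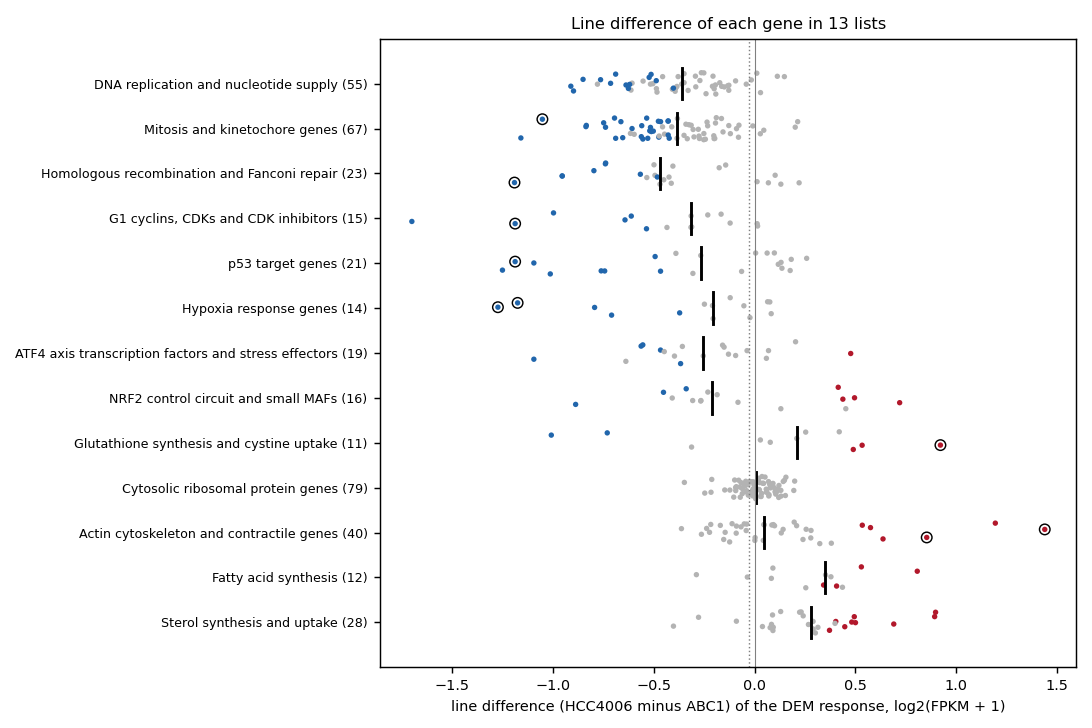
Line difference (x axis, log2(FPKM + 1), HCC4006 minus ABC1) of each gene in 13 lists, with the number of genes in parentheses. Blue and red points had an unadjusted p under 0.05 by limma (lower and higher in HCC4006), grey points did not, black rings mark called genes, bars are list medians and the dotted line is the median of all genes (-0.03). All coloured points of the 4 proliferation lists are blue, those of the sterol and fatty acid lists are red, and the 79 ribosomal protein genes are all grey and near 0.

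The NRF2 targets did not share a direction of the line difference. The genes for glutathione synthesis and cystine uptake had median effects of 0.90 in ABC1 and 0.98 in HCC4006, and 6 and 7 of 11 were upregulated. The subunits of glutamate-cysteine ligase had line differences of opposite sign: *GCLC*, the catalytic one, had effects of 3.21 in ABC1 and 2.20 in HCC4006, and *GCLM*, the modifier, of 1.61 and 2.15. *GCLC* had 20.8 and 31.1 FPKM with vehicle and 231 and 256 FPKM with DEM in ABC1. It had 83.99 and 83.1 FPKM with vehicle and 387 and 386 FPKM with DEM in HCC4006. *GCLM* had 15.2 and 17.6 FPKM with vehicle and 56.8 and 47.95 FPKM with DEM in ABC1. It had 8.13 and 7.72 FPKM with vehicle and 37.2 and 39.8 FPKM with DEM in HCC4006. The line differences of -1.01 (95% interval -1.54 to -0.48) and 0.53 (0.14 to 0.93) had adjusted p-values of 0.131 and 0.245 by limma and were not called. *SLC7A11*, the cystine transporter, had 0.21 (-0.10 to 0.52), and its partner chain *SLC3A2* had 0.08 (-0.22 to 0.37).

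The letters of an ARE (TGACNNNGC on either strand) were present in 3 of 6 matched promoters of the glutathione list against 15.8% of the genes studied. They were present in 2 of 12 of the thioredoxin list, 2 of 11 of the pentose phosphate list, 2 of 11 of the quinone list, 2 of 14 of the NRF2 circuit, 2 of 12 of the glutathione transferase list and 1 of 12 of the heme list. *GCLC* and *CTH* held no match in this window. The 250 bases upstream of *GCLM* are shown with this match in capitals (RefSeq, GRCh38.p14).
GCLM (chr1:93909431-93909680, minus strand): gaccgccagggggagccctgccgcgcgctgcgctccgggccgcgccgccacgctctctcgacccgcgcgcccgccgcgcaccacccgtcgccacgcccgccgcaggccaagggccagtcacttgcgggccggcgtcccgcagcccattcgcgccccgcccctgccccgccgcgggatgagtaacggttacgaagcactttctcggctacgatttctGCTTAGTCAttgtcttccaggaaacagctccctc

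Other antioxidant genes spanned both directions. *NQO1*, the quinone reductase, had 56.03 and 82.8 FPKM with vehicle and 193 and 221 FPKM with DEM in ABC1. It had 272 and 269 FPKM with vehicle and 480.0 and 525 FPKM with DEM in HCC4006. Its increase was 2.98-fold in ABC1 and 1.86-fold in HCC4006, from a higher vehicle level, and the line difference of -0.70 (95% interval -1.24 to -0.15) was not called (adjusted p = 0.269 by limma). *UGDH*, which makes the substrate for glucuronidation, had -0.83 (-1.38 to -0.28). *TXNRD1*, the cytosolic thioredoxin reductase, had the opposite sign, 0.58 (0.20 to 0.97), as did *PRDX1* (0.45, 0.09 to 0.80) and the pentose phosphate enzyme *TALDO1* (0.73, 0.43 to 1.03). *TALDO1* had 238 and 248 FPKM with vehicle and 244 and 256 FPKM with DEM in ABC1. It had 155 and 152 FPKM with vehicle and 257 and 266 FPKM with DEM in HCC4006, was called upregulated in HCC4006 and not in ABC1, and its line difference had an adjusted p of 0.069 by limma. The 11 quinone and carbonyl detoxification genes had 4 upregulated in ABC1 and 3 in HCC4006. The other 12 genes of that list did not enter, among them *AKR1C1* (vehicle means of 0.849 FPKM in ABC1 and 1.18 FPKM in HCC4006) and *AKR1C3* (14.7 and 0.52 FPKM).

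For several NRF2 targets the line difference lay close to 0. *HMOX1*, the heme oxygenase, had 17.3 and 20.1 FPKM with vehicle and 182 and 174 FPKM with DEM in ABC1. It had 5.59 and 5.89 FPKM with vehicle and 57.4 and 55.4 FPKM with DEM in HCC4006, a 9.51-fold and a 9.81-fold rise (line difference -0.10, 95% interval -0.44 to 0.24). *SRXN1*, the sulfiredoxin, had 0.06 (-0.37 to 0.49), and *GSR*, the glutathione reductase, had 0.03 (-0.36 to 0.41).

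Of the NRF2 control circuit, 16 of 16 genes were tested. Their median effect was 0.38 in ABC1 and 0.45 in HCC4006, while the median of the genes' line differences had the other sign (-0.21), with 4 higher and 3 lower at an unadjusted p under 0.05 by limma. *NFE2L2*, which encodes NRF2, had effects of 0.68 in ABC1, where it was upregulated, and 0.45 in HCC4006 (line difference -0.23, 95% interval -0.68 to 0.21). *KEAP1* was upregulated in both lines, with effects of 0.98 and 0.80 (-0.19, -0.51 to 0.14). *BACH1*, a repressor at AREs, was upregulated in HCC4006 (1.08) and not called in ABC1 (0.36), with a line difference of 0.72. *OSGIN1* was upregulated in both (3.54 and 2.65), with a line difference of -0.89 that ranged from -1.33 to -0.45 when each library was left out. *CEBPB*, a partner of NRF2 at enhancers, had effects of 0.89 and 0.74 and was upregulated in both lines (line difference -0.15, -0.48 to 0.17).

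**Figure D5:**
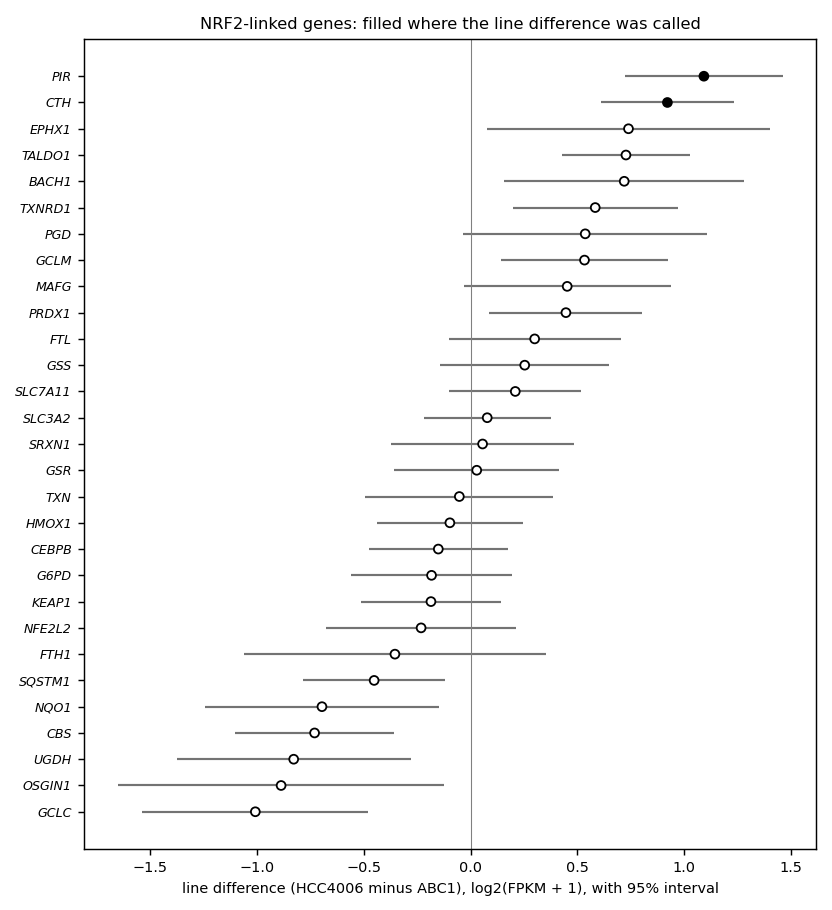
Line difference (x axis, log2(FPKM + 1), HCC4006 minus ABC1) of 29 genes linked to NRF2, glutathione and NADPH supply, with limma's 95% interval. Filled points were called (*PIR* and *CTH*) and open points were not. *GCLC*, *OSGIN1*, *UGDH*, *CBS* and *NQO1* lie below 0, *TXNRD1*, *GCLM* and *TALDO1* above 0, and *HMOX1*, *GSR* and *SRXN1* around 0.

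Heme and metal genes added contrasts that were not called. *ALAS1*, the first enzyme of heme synthesis, had 13.6 and 18.6 FPKM with vehicle and 32.2 and 35.4 FPKM with DEM in ABC1. It had 17.6 and 17.4 FPKM with vehicle and 19.6 and 17.5 FPKM with DEM in HCC4006, and was upregulated in ABC1 and not in HCC4006 (line difference -0.96, 95% interval -1.43 to -0.49). *CPOX*, a later enzyme of that pathway, was upregulated in ABC1 and downregulated in HCC4006 (-0.95, adjusted p = 0.0674 by limma). The metallothionein *MT2A* was downregulated in HCC4006 (-0.76) and had an effect of 0.52 in ABC1 (-1.28, adjusted p = 0.0768 by limma). *DUSP6*, the ERK phosphatase, had a line difference of -2.60, but its standard error was 0.54 and it was not called (adjusted p = 0.0982 by limma). Its values were 5.62 and 7.47 FPKM with vehicle and 8.36 and 25.6 FPKM with DEM in ABC1. It had 178 and 167 FPKM with vehicle and 60.7 and 57.6 FPKM with DEM in HCC4006, which did not overlap. In ABC1, DEM replicate 1 stood above the other 3 libraries, and without each library in turn the value ranged from -3.35 to -1.85.

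Large housekeeping complexes had median line differences of 0.01 (cytosolic ribosome), 0.02 (mitochondrial ribosome), 0.07 (complex I), -0.03 (proteasome) and -0.05 (splicing), beside -0.03 for all genes, while most had negative median effects in both lines. The 79 cytosolic ribosomal protein genes had median effects of -0.23 and -0.21, and by limma 0 were called and 0 had an unadjusted p under 0.05 for the line difference. Their line differences ranged from -0.35 to 0.20. The 72 mitochondrial ribosomal protein genes had median effects of -0.23 and -0.20, with 21 called downregulated in ABC1 and 12 in HCC4006, against 6.98% and 6.71% of all genes. The 37 nuclear genes of complex I had -0.13 and -0.12. The 43 proteasome genes, which NRF2 can induce, had medians of 0.07 and -0.01, with 1 called upregulated in ABC1. Splicing factors had -0.21 and -0.27, and endoplasmic reticulum stress genes 0.15 and 0.10. The median line difference of the ribosomal protein genes ranged from -0.03 to 0.08 when each library was left out.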

How the data were processed

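Poly(A)-selected, strand-specific RNA-seq libraries of ABC1 and HCC4006, each with vehicle or DEM (2 replicates per group), were compared. The authors deposited 1 FPKM value per gene and library, so the depth is unknown and no counting interval can be given. The study's methods name TopHat and Cufflinks with hg19, whereas the submitters' processing notes name bcl2fastq 2.15.0, cutadapt 1.15, STAR 2.5.3a, SAMtools, Cuffnorm, HTSeq, DESeq2 and R 3.2.0 with hg19 and GRCh37.p13. Which tools made these values is not settled here. Deposited tables of the authors' own comparisons hold fold changes and p-values and were not used.

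FPKM values were transformed as log2(FPKM + 1), on which changes of low genes are understated. Genes with a vehicle mean of at least 5 FPKM in both lines were fitted with limma 3.58.1 (R 4.3.3) on 8 libraries, with 1 mean per line and treatment and a mean-variance trend, with two-sided p-values under Benjamini-Hochberg adjustment over 8232 genes (threshold 0.05). The replicates are labelled as separate samples and the study describes them as biological duplicates. The fit was tested on simulated data. Symbols were paired with 55534 of 57815 identifiers, and 1617 of 1629 list symbols matched. Positions are GENCODE on GRCh37 and promoters RefSeq on GRCh38.p14. The members and gene lists were chosen with earlier results of these data known.

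Genes to name were set by a rule. It took the 10 called genes with the largest line difference in each direction and up to 8 genes called in opposite directions. From each list described, it took up to 3 called genes per direction, or up to 2 of any kind where none was called. It also took *NFE2L2*, *KEAP1*, *NQO1*, *GCLM*, *GCLC*, *SLC7A11*, *TXNRD1*, *HMOX1* and *CEBPB*. The rule's genes for some lists, such as the proteasome, ribosome, interferon and TGF-beta lists, are not given. All other genes, such as *MALL*, *GAB2*, *CHCHD10*, *CCND3*, *TOP2A*, *CDK1*, *MVD* and *GSR*, were chosen after their values were seen. Alternatives were other pseudocounts, minimums, scalings, variance models, a replicate block and each library left out. Some genes counted here are not reported by name.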

Additional observations from a re-analysis of the deposited data

Results flagged for a closer look

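For the genes below, the DEM response differed between the lines by the test of the difference itself (limma, adjusted over 8232 genes). With 2 libraries per group, no single library could be tested as standing apart. Values are the effect in HCC4006 minus that in ABC1 on the log2(FPKM + 1) scale. A higher effect in HCC4006 was found for *SFN* (2.06), *BMAL1* (1.69), *TCEAL1* (1.40), *MAP2* (1.38), *ZFP36L2* (1.15), *UPP1* (1.12), *JUN* (1.11), *PIR* (1.09), *TSKU* (0.98), *CHCHD10* (0.97), *GAB2* (0.94), *MIR22HG* (0.93), *CTH* (0.92) and *CNN3* (0.85). A lower effect was found for *PTGS2* (-1.99), *NET1* (-1.59), *FHL2* (-1.59), *IFT25* (-1.40), *ITGA2* (-1.27), *P4HA2* (-1.27), *FANCG* (-1.19), *CDKN1A* (-1.19), *VEGFA* (-1.18), *AURKB* (-1.05) and *MALL* (-0.96).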

How the results depend on the processing

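All 26 line differences kept their sign under every alternative in which they were tested. Still called were 26 with pseudocounts of 0.5 and 0.1, a mean of at least 1 FPKM, median-of-ratios scaling, library weights per line or the replicate block, 24 without a minimum or rescaled without mitochondrial-genome genes, and 20 without the variance trend. The counts of line differences (higher, then lower in HCC4006) were 42 and 45 with a mean of at least 1 FPKM, 173 and 230 without a minimum, 6 and 4 with a vehicle mean of at least 20 FPKM (3830 genes tested), 29 and 21 with median-of-ratios scaling, and 27 and 26 without mitochondrial-genome genes. Leaving out each library gave 0 to 50 and 0 to 59. In ABC1, the counts called higher and lower were 264 and 214 at 20 FPKM and 283 and 228 with weights, and ranged from 209 to 700 and 189 to 678 when each library was left out. In HCC4006 they were 185 and 238 at 20 FPKM, 1024 and 1252 with weights, and ranged from 100 to 683 and 86 to 828, and 847 were lower with a mean of at least 1 FPKM. The cause of these changes was not tested.

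The groups share only replicate numbers. With a replicate block, line differences were called higher for 120 and lower for 161 of the 8232 genes. Effects within a line were called for 1310 and 1272 genes in ABC1, and 1062 and 1356 in HCC4006. The called line differences then included 8 of 55 DNA replication and 11 of 67 mitosis genes (all lower). Also all lower were those of 4 of 14 hypoxia, 3 of 23 recombination and Fanconi, 3 of 15 G1 and 3 of 21 p53 target genes. All higher were those of 5 of 28 sterol and 6 of 40 actin cytoskeleton genes. Single genes called were *GCLC*, *NQO1* and *UGDH* (lower) and *TXNRD1* and *TALDO1* (higher), among others. Deviations of same-numbered vehicle and DEM libraries correlated across genes at 0.411 in ABC1 and 0.103 in HCC4006, and between lines at 0.096 (vehicle) and -0.215 (DEM). No depth is known, so what it limits cannot be given.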

Other observations

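TGF-beta and SMAD pathway genes, which are not described above, had a median line difference of -0.29 over 21 genes, with median effects of 0.07 in ABC1 and -0.11 in HCC4006. At an unadjusted p under 0.05 by limma, 3 were lower and 1 was higher in HCC4006, and 0 were called. Interferon-stimulated genes fell in part in both lines: 6 of 19 were called downregulated in ABC1 and 4 in HCC4006, with medians of -0.26 in each.

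The largest line differences of all genes studied belonged to short non-coding RNAs, chosen here after their values were seen. *RNU6-1*, a U6 small nuclear RNA gene, had the most positive line difference, with a standard error of 1.62 and an adjusted p of 0.345 by limma. Its FPKM was 24.1 in ABC1 DEM replicate 0 and 0 in ABC1 DEM replicate 1. *SNORA22*, a small nucleolar RNA gene, had -3.02 with a standard error of 1.29, and its FPKM was 13.2 and 0.215 in the DEM libraries of HCC4006. Neither was called.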
